A study of Mus musculus with 18 samples.

Results

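The genes of voltage-gated sodium, calcium and potassium channels, with their auxiliary subunits and close relatives, were followed in mouse oculomotor nucleus and cervical spinal cord. A probe set, the group of oligonucleotides that reads one transcript on the array, was counted when the array annotation gave it a single symbol of the Scn, Cacna, Cacnb, Cacng, Kcn or Hcn families, Kcnip and Kcnmb included. The rule found 139 of 22626 probe sets, for 96 of 12393 genes. Because it goes by gene name, it also takes in channels that voltage does not open: 20 probe sets of inward rectifiers, 12 of K2P leak channels and 10 of calcium channel gamma subunits, several of which are partners of AMPA receptors (TARPs). A further 14 belong to calcium- and sodium-activated potassium channels.

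Voltage-gated sodium channels carry the upstroke of the action potential, potassium channels end it and hold the resting potential, and calcium channels turn depolarisation into calcium entry and transmitter release. HCN channels open on hyperpolarisation and carry a depolarising current that shapes rhythmic firing. The set of channels a neuron expresses fixes its threshold, its firing rate and its load of sodium and calcium, and altered excitability of motor neurons is a known feature of amyotrophic lateral sclerosis (ALS).

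Total RNA was hybridised as labelled cRNA to Affymetrix 430A arrays. Each region was taken from mutant mice of an ALS model at 6 weeks of age, from such mutants at 10 weeks and from 10-week-old control mice, and every one of these 6 groups had 3 arrays. The oculomotor nucleus drives eye muscles and is spared in ALS, whereas the spinal cord is affected, and the submitters' design text compares the regions at each age. The labels name neither the mutation, the strain nor the number of animals behind an array, and the design text calls the replicates independent without naming separate animals, so no mutated gene could be checked and the spread that p-values measure is that between these samples, which may be technical. The youngest controls were of 10 weeks. One array, replicate 1 of control spinal cord, is not used, since its correlation with the other arrays across probe sets lay between 0.0104 and 0.0143, against 0.957 to 0.985 among the other 17, and its group therefore held 2 arrays. Pituitary hormone genes stood out on mutant oculomotor replicate 2 of 10 weeks, with Gh at 13207, and on control oculomotor replicate 3, with Gh at 2933.8 and Prl at 3008, against at most 1045.1 for Gh on the other arrays used. The 17 arrays had median signals of 207.1 to 226.05, and their number limits the precision. Below, signals are on the authors' linear scale, differences are log2 fold changes of signal plus 25 with their standard error (SE), and a probe set is called when its limma p, adjusted over the tested probe sets, is under 0.05. Tested were the 13575 probe sets whose mean log2 signal exceeded 7.38. Each group had n = 3 arrays, and control spinal cord n = 2.

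Of the 139 channel probe sets, 73 passed that filter, for 55 genes. The other 66 had mean log2 signals between 4.81 and 7.35 and were not tested, and 41 genes had no tested probe set. Among these were the sodium channel pores Scn3a, Scn7a, Scn9a, Scn10a and Scn11a, the presynaptic calcium channel Cacna1b and the potassium channels Kcnq1, Kcnq5 and Kcnj6. The probe sets nearest the limit were Cacna1a (1459996_at) at 7.35, Kcnj6 at 7.34 and Kcnmb1 at 7.34 just below it and Cacna1f at 7.40, Cacna1a (1450510_a_at) at 7.45 and Kcnd1 at 7.51 just above it. Of those tested, 63 exceeded the limit in both regions, 8 in the oculomotor nucleus alone (Hcn3, Kcna3, Kcna4, Kcnj9, Cacna1a, Scn3b on 1426328_a_at, Cacna2d1 on 1425861_x_at and Kcnma1 on 1424848_at) and 2, Kcnj14 and Cacna1f, in spinal cord alone. Since these 10 passed through the region where they were higher, their means had to differ in that direction, though not by any set amount. Their calls are therefore no support for a regional difference.

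The regions differed in the signals of cell type markers as well as in channels. All 5 tested motor neuron markers were lower in the oculomotor samples in the mean of the 3 conditions, with a median of -1.85, and the summed signal of the 6 on the array ran from 3034.0 to 4291 there, against 8860 to 10364 in spinal cord. All 4 tested markers of dopamine and serotonin neurons were higher, with a median of 3.13. Of 7 general neuron markers 1 was higher (Syt1) and 3 were lower, with a median of 0.02. Lower in the oculomotor samples in that mean were also 4 of 6 astrocyte markers (1 was higher), all 5 of oligodendrocytes, 4 of 5 of microglia and all 6 of meninges, with medians of -0.49, -0.32, -0.68 and -1.92. In mutants of 6 weeks alone 2 of the 5 oligodendrocyte markers were called lower, with a median of 0.10. Their summed signal at that age was 49419 to 50879 in the oculomotor nucleus, against 43107 to 47862.5 in spinal cord. What these lists contribute to the channel values was not tested, and in bulk tissue fewer cells of a type and less RNA per cell cannot be told apart.

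Channel probe sets were called between the regions more often than probe sets at large in every condition. The counts below include the probe sets that passed the filter through a single region, whose calls are no support for a regional difference. No count was made without them. In mutants of 6 weeks 36 of the 73 tested were called, or 49.3%, where 23.9% of all probe sets were. Of these 19 were higher in the oculomotor nucleus and 17 lower, where 12.2% and 11.7% of all were. In mutants of 10 weeks the count was 38 (24 higher and 14 lower), or 52.1%, against 19.3% of all (9.3% higher and 9.99% lower). In controls of 10 weeks it was 30 (20 higher and 10 lower), or 41.1%, against 13.6% of all (6.62% higher and 6.94% lower). Fewer were called without control spinal cord replicate 2, which leaves 1 array in that group. The share of all probe sets in that fit is not given, so it does not show whether the excess held. The members did not shift as a block: their median difference was 0.09, 0.03 and -0.0016 in the 3 conditions in that order, and that of all probe sets 0.03, 0.00076 and 0.01. In the mean of the 3 regional differences 51 members were called (33 higher and 18 lower), or 69.9%, against 37.7% of all (20.0% higher and 17.7% lower).

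**Figure D1:**
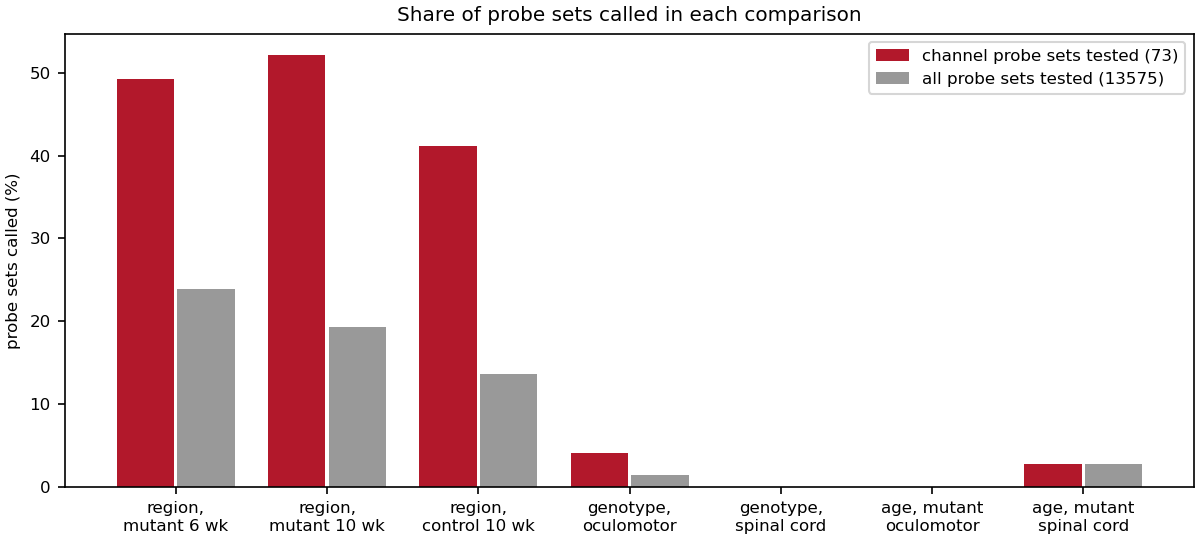
Bars give the percentage of probe sets called (adjusted p under 0.05 in limma) in 7 comparisons, in red for the 73 channel probe sets tested and in grey for all 13575. The red bars stand at 49.3%, 52.1% and 41.1% in the 3 regional comparisons and at 4.11% or less in the genotype and age comparisons.

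In all 3 regional comparisons, which share no array, calls in a single direction came from 11 channel probe sets of 8 genes that were higher and 9 of 8 genes that were lower in the oculomotor nucleus. Together these were 27.4% of the members tested, where 7.47% of all probe sets were called so (3.07% higher and 4.4% lower). The higher genes were Scn3b, Scn2a, Hcn3, Kcna3, Kcnj9, Cacna2d2, Kcnip4 and Kcnma1. The lower ones were Kcnj14, Kcnab1, Kcnk13, Kcna1, Kcnk1, Kcnab2, Kcnj10 and Cacna2d3. Both lists mix pore and auxiliary subunits, and the lower list holds 7 potassium channel genes and 1 calcium channel gene. Of 17 genes with several tested probe sets, 15 had a single sign in the regional mean, and all probe sets of 12 were called. The exceptions in sign were Cacng5 and Kcnmb2. Scn3b (1426328_a_at), Hcn3, Kcna3, Kcnj9 and Kcnj14 are among the 10 probe sets that passed the filter through a single region. The 27.4% includes them, and their calls are no support for a regional difference.

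**Figure D2:**
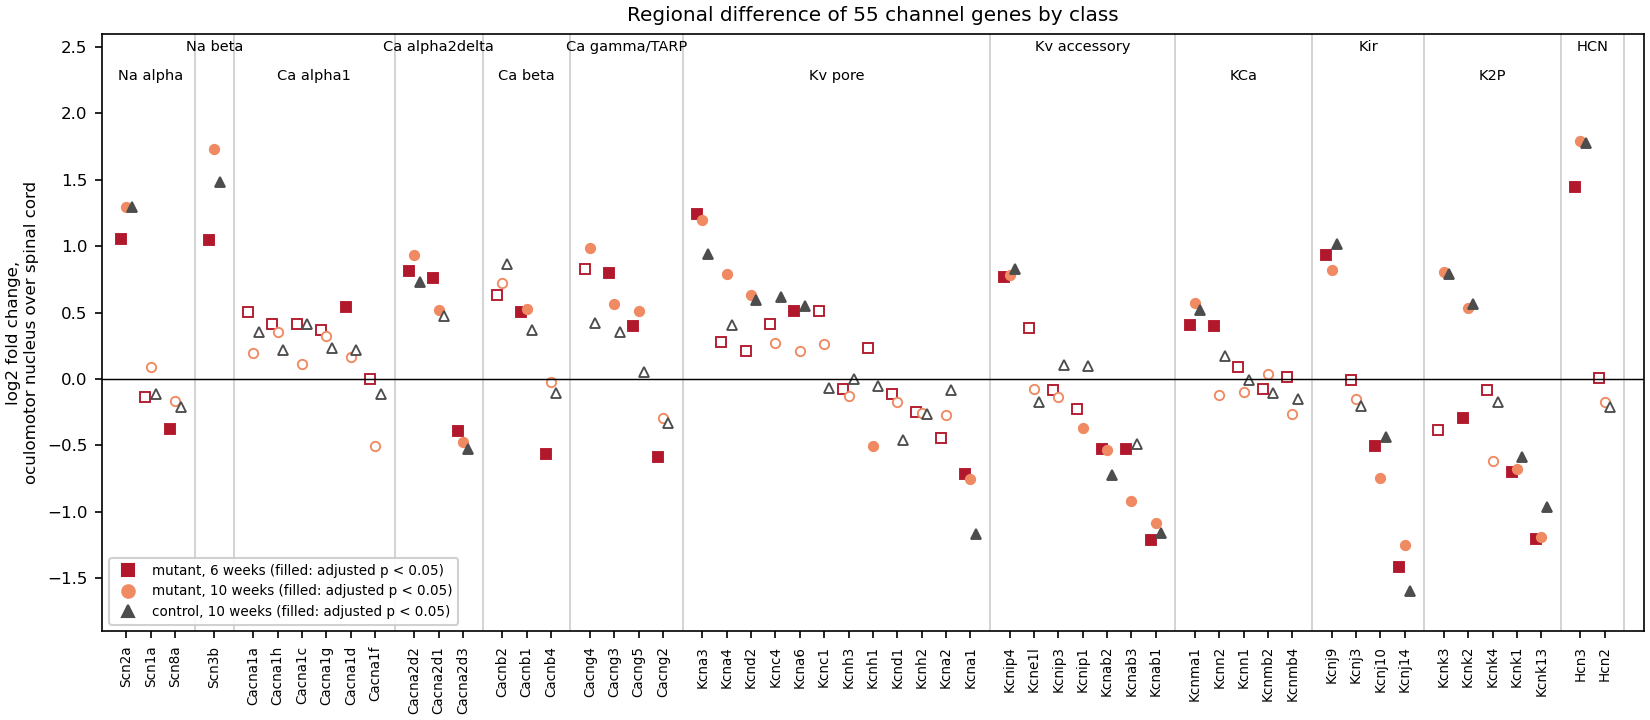
Each column is one of the 55 tested channel genes, grouped by class, and the vertical axis is the log2 fold change of the oculomotor nucleus over spinal cord. Squares are mutants of 6 weeks, circles mutants of 10 weeks and triangles controls of 10 weeks, filled where the adjusted p is under 0.05 in limma. In all 3 conditions Hcn3 lies highest and Kcnj14 lowest, with Scn3b and Scn2a among the highest and Kcnab1 and Kcnk13 among the lowest.

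The promoters of the genes that moved together between the regions were read from RefSeq (build GRCm38.p6), 250 bases before to 50 after the gene start, in the direction of the gene. Of 96 channel genes, 76 had an entry; Scn3b, Hcn3 and Kcnj14 had none. Shown are the raised Scn2a (chr2:65620519-65620818, plus strand, the first of 2 listed) and Kcna3 (chr3:107035912-107036211, plus strand) and the lowered Kcnab1 (chr3:64948962-64949261, plus strand, the first of 3 listed) and Kcnk13 (chr12:99964249-99964548, plus strand), which among the genes called in all 3 conditions with an entry had the greatest mean differences. Capitals mark GGGCGG, the GC box bound by Sp factors, or its reverse complement.
Scn2a: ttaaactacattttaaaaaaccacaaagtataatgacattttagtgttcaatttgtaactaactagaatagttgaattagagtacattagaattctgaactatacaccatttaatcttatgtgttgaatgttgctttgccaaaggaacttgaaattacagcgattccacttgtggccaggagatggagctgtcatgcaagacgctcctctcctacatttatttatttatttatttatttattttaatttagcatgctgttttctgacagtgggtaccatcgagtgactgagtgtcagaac
Kcna3: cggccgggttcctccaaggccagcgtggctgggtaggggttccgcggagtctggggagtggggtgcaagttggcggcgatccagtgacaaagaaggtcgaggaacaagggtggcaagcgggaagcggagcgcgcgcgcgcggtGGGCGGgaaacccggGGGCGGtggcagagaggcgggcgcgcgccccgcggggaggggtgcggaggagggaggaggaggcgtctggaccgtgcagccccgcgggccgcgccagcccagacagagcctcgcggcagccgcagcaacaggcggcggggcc
Kcnab1: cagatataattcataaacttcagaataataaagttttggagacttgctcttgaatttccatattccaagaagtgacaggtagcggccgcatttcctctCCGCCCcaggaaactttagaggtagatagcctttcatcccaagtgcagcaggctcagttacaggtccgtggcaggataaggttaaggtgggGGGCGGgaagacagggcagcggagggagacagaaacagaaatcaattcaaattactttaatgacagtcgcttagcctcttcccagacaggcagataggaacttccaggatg
Kcnk13: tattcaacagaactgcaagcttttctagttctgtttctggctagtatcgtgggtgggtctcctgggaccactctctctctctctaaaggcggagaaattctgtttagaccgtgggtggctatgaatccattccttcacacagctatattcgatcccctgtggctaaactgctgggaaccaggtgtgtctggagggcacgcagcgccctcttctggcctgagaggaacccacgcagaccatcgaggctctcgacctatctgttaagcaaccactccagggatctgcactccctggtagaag

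These windows differ widely in base composition: G and C made up 33.0% of Scn2a, 75.0% of Kcna3, 46.7% of Kcnab1 and 52.7% of Kcnk13. The GC box was found 2 times each in Kcna3 and Kcnab1 and in neither of the others, so it occurs on both sides of the regional split. For the counts each gene was read on both strands in its first listed promoter alone. The GC box was present in 3 of the 6 genes with an entry that were higher in all regional comparisons. It was in 4 of the 6 that were lower, in 52.6% of the 76 channel genes with an entry and in 35.9% of all 27025 genes with one. TATAAA, the TATA box, was in 3.95% of channel promoters and 14.2% of all, CCAAT in 27.6% and 37.9%, and CACGTG, an E-box, in 5.26% and 7.24%. TTCAGCACC, a part of the element bound by the neuronal repressor REST, was in 0 of the 76 and in 0.359% of all. With a motif this rare, its absence from 76 windows does not show that channel promoters lack it more than others. The motifs do not overlap in sequence, and a match describes the letters of the window and is no evidence of binding.

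Among sodium channels, Scn2a and its auxiliary subunit Scn3b were higher in the oculomotor nucleus in every condition, while Scn8a was lower in the regional mean and Scn1a was not called. Scn2a encodes a pore subunit of axon initial segments and unmyelinated axons. On the probe set 1427280_at, oculomotor signals of Scn2a were 1662, 1589.8 and 1336 in mutants of 6 weeks, 1806, 1641 and 1402 in mutants of 10 weeks and 1591, 2021 and 1374 in controls. The spinal cord signals were 712, 816 and 647 in mutants of 6 weeks, 643, 658 and 624 in mutants of 10 weeks and 688 and 623 in controls. Every oculomotor array lay above every spinal cord array. The difference was 1.05 ± 0.13 in mutants of 6 weeks, 1.29 ± 0.13 in mutants of 10 weeks and 1.29 ± 0.15 in controls, with adjusted p of 1.35e-05, 1.31e-06 and 7.21e-06 in limma. A second probe set, 1427281_at, gave 1.43, 1.93 and 1.73, all called.

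Scn3b, a beta subunit that modulates gating and the amount of channel at the surface, separated the regions as fully. Its oculomotor signals (1435767_at) were 1028, 1212 and 1044 in mutants of 6 weeks, 1283, 1301 and 1173 in mutants of 10 weeks and 1291, 1276 and 1153 in controls. Against these stood spinal cord signals of 483, 557 and 512 in mutants of 6 weeks, 407, 308 and 366 in mutants of 10 weeks and 426 and 427 in controls. The lowest oculomotor array was thus well clear of the highest spinal cord array. In mutants of 6 weeks Scn3b was 2.06-fold higher (1.04 ± 0.11, adjusted p = 1.33e-06), in mutants of 10 weeks 3.33-fold (1.74 ± 0.11, adjusted p = 1.81e-09) and in controls 2.8-fold (1.48 ± 0.12, adjusted p = 9.89e-08; limma). The probe set 1426328_a_at, which passed the filter through the oculomotor nucleus alone, gave 1.46, 1.56 and 1.66.

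Scn8a, the main pore of mature initial segments and nodes of Ranvier, was lower in the oculomotor nucleus of mutants of 6 weeks. It had 1649, 1775 and 1738 in mutants of 6 weeks, 1685, 1544 and 1523 in mutants of 10 weeks and 1605, 1830.2 and 1412 in controls in the oculomotor nucleus. In spinal cord it had 2452, 2148 and 2142 in mutants of 6 weeks, 1869.7, 1530.4 and 1978 in mutants of 10 weeks and 1688 and 2061 in controls. The arrays of both regions did not overlap at 6 weeks and did at 10 weeks. Its difference was -0.38 ± 0.11 (adjusted p = 0.0206) in mutants of 6 weeks, -0.17 ± 0.11 (adjusted p = 0.321) in mutants of 10 weeks and -0.21 ± 0.13 (adjusted p = 0.302) in controls by limma. Its other probe set (1451894_a_at) gave -0.40, -0.09 and -0.17. In the mean of the 3 conditions both probe sets were called lower. Whether the regional difference changed with age in the mutants was tested for this gene and not called (0.21 ± 0.16, adjusted p = 0.551).

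Scn1a, a pore subunit prominent in fast-spiking inhibitory neurons, was not called between the regions on either probe set. On 1450121_at the oculomotor signals were 2331, 2500.1 and 2513 in mutants of 6 weeks, 2602, 2355 and 2244 in mutants of 10 weeks and 2007, 1988 and 2173 in controls. The spinal cord signals there were 2949, 2395 and 2740.1 in mutants of 6 weeks, 1812, 2586 and 2435 in mutants of 10 weeks and 2236 and 2207 in controls, and the ranges overlapped in mutants of both ages but not in controls. The 95% confidence interval of the regional difference ran from -0.37 to 0.11 in mutants of 6 weeks, -0.15 to 0.33 in mutants of 10 weeks and -0.38 to 0.15 in controls.

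**Figure D3:**
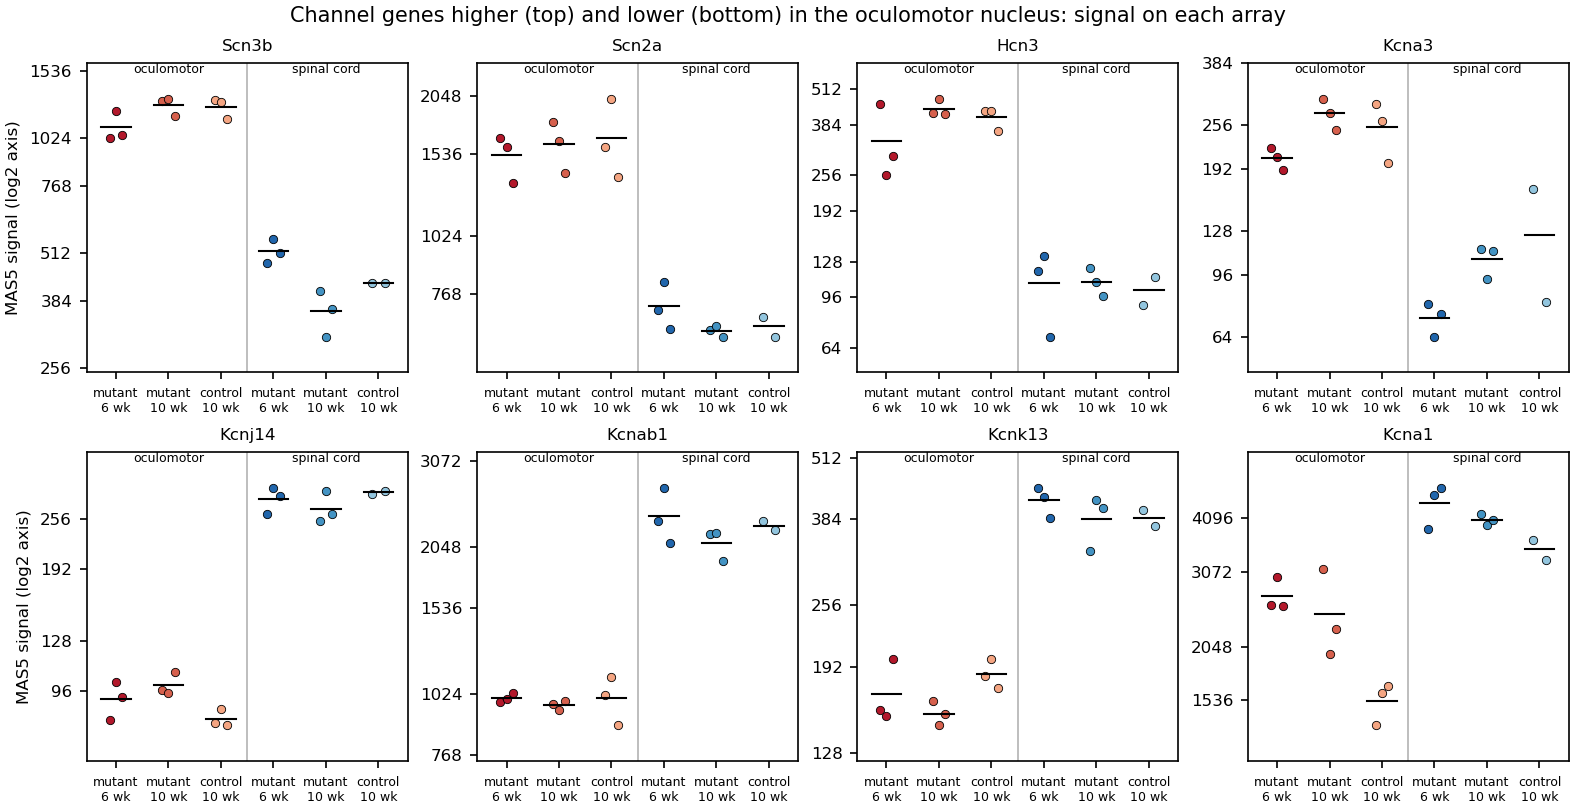
Points are the signals of single arrays on a log2 axis and horizontal lines the group means, for 4 channel genes higher in the oculomotor nucleus (top) and 4 lower (bottom). In each panel the oculomotor groups stand left and the spinal cord groups right, and the arrays of both regions do not overlap. The mutant arrays of Kcna1 also lie above its control arrays within the oculomotor nucleus.

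Over the 17 arrays Scn3b and Scn2a had a Pearson correlation of 0.968. Outside the channels, the genes with the signal pattern most like Scn3b were Blcap (0.979), Gap43 (0.977), Ncam1 (0.975), Nsg2 (0.966) and Syt4 (0.965). For Scn2a they were St6galnac5 (0.981), Rgs8 (0.978), Gap43 (0.972), Ncam1 (0.971) and Nsg2 (0.970). These values describe 17 arrays of 2 regions and all share the step between them. Among channel genes, Hcn3 followed Scn2a with 0.960 and Kcnj14 ran opposite with -0.957.

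Pore subunits of calcium channels differed by small amounts between the regions. Of 6 tested genes, 1 was called in mutants of 6 weeks (Cacna1d), 0 in mutants of 10 weeks and 0 in controls. Of all probe sets 23.9%, 19.3% and 13.6% were called in these conditions. In the mean of the 3 conditions 5 of the 6 were called higher, or 83.3%, where 20.0% of all were, with differences up to 0.35. The largest was that of Cacna1a (1450510_a_at), which passed the filter through the oculomotor nucleus alone. Cacna1d, an L-type channel that opens near rest, had oculomotor signals of 323, 284 and 258 in mutants of 6 weeks, 273, 265 and 282 in mutants of 10 weeks and 250.0, 250.5 and 288 in controls. Its spinal cord signals were 208, 174 and 189 in mutants of 6 weeks, 284, 224 and 218 in mutants of 10 weeks and 219.5 and 224 in controls. It was called in mutants of 6 weeks at 0.54 ± 0.13 (adjusted p = 0.00447, limma), against 0.17 and 0.22 at 10 weeks.

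Cacna1g and Cacna1h carry T-type current, which opens at low voltage and supports burst firing. Cacna1g measured 469, 732 and 506 in mutants of 6 weeks, 552, 507 and 636 in mutants of 10 weeks and 524, 623 and 488 in controls in the oculomotor nucleus. In spinal cord it measured 424, 451 and 405 in mutants of 6 weeks, 382, 441 and 524 in mutants of 10 weeks and 446 and 467 in controls. Its mean regional difference was 0.31 ± 0.09 (adjusted p = 0.011, limma). Cacna1h gave 267, 236 and 259 in mutants of 6 weeks, 306, 212 and 228 in mutants of 10 weeks and 234, 229.6 and 188 in controls in the oculomotor nucleus. Spinal cord arrays gave 204, 175 and 174 in mutants of 6 weeks, 150.4, 208 and 209 in mutants of 10 weeks and 211 and 157 in controls, and the mean difference was 0.33 ± 0.10 (adjusted p = 0.0115, limma). For both genes the difference kept the same sign in the 3 conditions and was called in none of them alone. The P/Q-type channel Cacna1a, which drives transmitter release at most central synapses, and the L-type Cacna1c had mean differences of 0.35 and 0.31, both called. The call of Cacna1a is no support for a regional difference, since it passed the filter through the oculomotor nucleus alone.

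The alpha2delta subunits, which bring calcium channels to the membrane and of which Cacna2d1 and Cacna2d2 bind gabapentin, split by gene. Cacna2d2 was higher in the oculomotor nucleus. It had 2213, 1936 and 1937 in mutants of 6 weeks, 2507, 2222 and 2745 in mutants of 10 weeks and 1855, 1901 and 1675 in controls there. Spinal cord arrays had 1194, 1284 and 970.3 in mutants of 6 weeks, 1045, 1366 and 1501 in mutants of 10 weeks and 1082 and 1073 in controls, all below the lowest oculomotor array. Differences were 0.81 ± 0.13, 0.93 ± 0.13 and 0.73 ± 0.14 in the order mutants of 6 weeks, mutants of 10 weeks and controls, with adjusted p of 0.000136, 3.94e-05 and 0.00159 in limma.

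Cacna2d3 was lower. Oculomotor arrays showed 939, 1103 and 857 in mutants of 6 weeks, 929, 887 and 890.5 in mutants of 10 weeks and 847, 855 and 722 in controls. In spinal cord the values were 1199.5, 1225 and 1391 in mutants of 6 weeks, 1199, 1245 and 1342 in mutants of 10 weeks and 1164 and 1178 in controls, again without overlap. Its differences were -0.39 ± 0.10, -0.47 ± 0.10 and -0.53 ± 0.11 (adjusted p = 0.00925, 0.00315 and 0.00424, limma). Cacna2d1 (1449999_a_at) had oculomotor signals of 586, 572 and 496 in mutants of 6 weeks, 394, 489 and 586 in mutants of 10 weeks and 493, 436 and 328 in controls, and its spinal cord signals were 278, 303 and 369 in mutants of 6 weeks, 309.9, 335 and 347 in mutants of 10 weeks and 302 and 280.4 in controls. It was called higher at 0.76 and 0.52 in mutants of 6 and 10 weeks and stood at 0.47 in controls (adjusted p = 0.0768, limma). Its second probe set (1425861_x_at), which passed the filter through the oculomotor nucleus alone, gave 0.25, 0.73 and 1.14, of which the last 2 were called.

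Of the cytoplasmic beta subunits, which set the surface level and gating of calcium channels, Cacnb1 and Cacnb2 were higher in the mean of the 3 conditions. Cacnb1 had 422, 573 and 434 in mutants of 6 weeks, 443, 493 and 461 in mutants of 10 weeks and 514, 469 and 479 in controls in the oculomotor nucleus. Spinal cord gave 357, 307 and 313 in mutants of 6 weeks, 261, 329 and 363 in mutants of 10 weeks and 433 and 318 in controls. Its differences were 0.51 and 0.53 in mutants of 6 and 10 weeks, both called, and 0.37 in controls (adjusted p = 0.137, limma). Cacnb2 varied more, with oculomotor signals of 461, 211 and 209.5 in mutants of 6 weeks, 368, 336 and 382 in mutants of 10 weeks and 508, 486 and 455 in controls. Its spinal cord arrays read 193, 223 and 109.5 in mutants of 6 weeks, 207, 247 and 180.1 in mutants of 10 weeks and 167 and 381 in controls, which overlapped the oculomotor arrays at 6 weeks and not at 10 weeks. The mean difference was 0.74 ± 0.17 (adjusted p = 0.00171, limma), and none of the 3 conditions was called alone. Cacnb4 on its brighter probe set (1436912_at) had 671, 568 and 689.7 in mutants of 6 weeks, 779, 678 and 612 in mutants of 10 weeks and 739, 738 and 618 in controls in the oculomotor nucleus and, in spinal cord, 1108, 839.8 and 955 in mutants of 6 weeks, 662, 693 and 742 in mutants of 10 weeks and 724 and 778 in controls. It was called lower in the regional mean (-0.23 ± 0.07, adjusted p = 0.0166, limma) and, of the single conditions, in mutants of 6 weeks (-0.57 ± 0.12, adjusted p = 0.00207, limma), and its spinal cord signals of 6 weeks were the highest of all groups.

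Of the gamma subunit family, Cacng3, Cacng4 and Cacng5 were higher in the regional mean and Cacng2 was lower. Cacng2, Cacng3 and Cacng4 encode TARPs, which carry AMPA receptors to the synapse. Cacng3 had 399, 487 and 528 in mutants of 6 weeks, 467, 603 and 506 in mutants of 10 weeks and 492, 497 and 487 in controls in oculomotor samples. Spinal cord samples had 229, 264 and 285 in mutants of 6 weeks, 314, 397 and 327 in mutants of 10 weeks and 388 and 372 in controls. The oculomotor and spinal cord arrays did not overlap. The difference was 0.80 ± 0.13 (adjusted p = 0.000172) in mutants of 6 weeks, 0.57 ± 0.13 (adjusted p = 0.00412) in mutants of 10 weeks and 0.35 ± 0.14 (adjusted p = 0.118) in controls by limma.

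Cacng5 (1434785_at) read 602, 464 and 477 in mutants of 6 weeks, 477, 530.4 and 517 in mutants of 10 weeks and 452, 332 and 356 in controls in the oculomotor nucleus, and 385, 371 and 387 in mutants of 6 weeks, 350.3, 326 and 368 in mutants of 10 weeks and 407 and 323 in controls in spinal cord. Its mean regional difference was 0.32 ± 0.08 (adjusted p = 0.00286, limma), but its other probe set (1426330_at) stood at -0.08. Cacng4 varied more between arrays, with 552, 417 and 276 in mutants of 6 weeks, 371, 310.0 and 267 in mutants of 10 weeks and 261, 549 and 241 in controls in oculomotor samples. Spinal cord samples of Cacng4 held 194, 351 and 143 in mutants of 6 weeks, 149, 197 and 104 in mutants of 10 weeks and 341 and 163 in controls, and the mean difference was 0.75 ± 0.20 (adjusted p = 0.00611, limma). Cacng2 differed by -0.59, -0.29 and -0.33, the first of which was called.

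Voltage-gated potassium channel pores went both ways, with Kcna3 the most raised and Kcna1 the most lowered in the oculomotor nucleus. Of 15 tested probe sets, 10 were called in the regional mean, where 37.7% of all probe sets were, 8 of them higher, where 20.0% of all were. Kcna3, a delayed rectifier of neurons that immune cells also use, had 221, 208 and 191 in mutants of 6 weeks, 304, 277 and 248 in mutants of 10 weeks and 294, 263 and 200.4 in controls in oculomotor samples. In spinal cord its signals were 79.4, 64.1 and 74.4 in mutants of 6 weeks, 114, 93.6 and 112 in mutants of 10 weeks and 168 and 80.7 in controls. All 9 oculomotor arrays exceeded all 8 of spinal cord, but Kcna3 passed the filter through the oculomotor nucleus alone. Kcna3 was higher by 1.25 ± 0.19, 1.20 ± 0.19 and 0.94 ± 0.21 in mutants of 6 weeks, mutants of 10 weeks and controls, with adjusted p of 0.000107, 0.000183 and 0.00538 in limma.

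Kcna1 encodes the low-threshold channel that sits beside the nodes of myelinated axons and restrains repetitive firing. Oculomotor samples had 2559, 2980.4 and 2550.2 in mutants of 6 weeks, 3114, 1972 and 2257 in mutants of 10 weeks and 1341, 1594 and 1660.5 in controls. Spinal cord samples had 3869, 4634 and 4825 in mutants of 6 weeks, 4187, 3945 and 4043 in mutants of 10 weeks and 3648 and 3277 in controls, every one above the oculomotor arrays. Its difference was -0.71 ± 0.13 (adjusted p = 0.000778) in mutants of 6 weeks, -0.75 ± 0.13 (adjusted p = 0.000586) in mutants of 10 weeks and -1.17 ± 0.15 (adjusted p = 2.87e-05) in controls by limma.

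Kcnd2, the pore of the transient A-type current of dendrites, was higher at 10 weeks in both genotypes. Its oculomotor arrays (1422835_at) read 1105, 1065 and 1024 in mutants of 6 weeks, 1203, 1169 and 1177 in mutants of 10 weeks and 1375, 1281 and 1245 in controls. Those of spinal cord read 937, 840.0 and 979.7 in mutants of 6 weeks, 749, 713 and 806 in mutants of 10 weeks and 837 and 863 in controls, with no overlap of the regions. Differences were 0.21 ± 0.09 (adjusted p = 0.0895), 0.63 ± 0.09 (adjusted p = 4.32e-05) and 0.60 ± 0.10 (adjusted p = 0.000324) in limma, and all 3 of its tested probe sets were called higher in the mean. Of the remaining pores, Kcna4 (0.49), Kcna6 (0.42) and both probe sets of Kcnc4 (0.91 and 0.43) were higher in the mean and Kcnh2, the ether-a-go-go related channel, was lower (-0.25). Of these, Kcna4 passed the filter through the oculomotor nucleus alone. Kcna2, Kcnc1, Kcnd1, Kcnh1 and Kcnh3 lay between -0.26 and 0.24 and were not called in the mean.

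The auxiliary subunits of these channels were mostly lower. Of 12 tested probe sets, 6 were called lower and 2 higher in the regional mean (17.7% and 20.0% of all probe sets), with a median of -0.33 against 0.02 for all probe sets. The beta subunits Kcnab1, Kcnab2 and Kcnab3, which bind Kcna channels and speed their inactivation or aid their transport, made up the lower calls. Kcnab1 (1448468_a_at) had 985, 1001 and 1026 in mutants of 6 weeks, 978, 947 and 989 in mutants of 10 weeks and 1019, 1106 and 882 in controls in the oculomotor nucleus. In spinal cord it had 2321, 2712 and 2092 in mutants of 6 weeks, 2175, 2185 and 1914 in mutants of 10 weeks and 2311 and 2217 in controls. The oculomotor signals were less than the lowest of spinal cord on every array, at -1.21 ± 0.10, -1.08 ± 0.10 and -1.16 ± 0.11 in mutants of 6 weeks, mutants of 10 weeks and controls (adjusted p = 1.10e-07, 4.37e-07 and 1.19e-06, limma). Its second probe set (1454043_a_at) gave -0.61, -0.81 and -0.16, the last not called.

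Kcnab2 (1416956_at) had 2011, 1823 and 1700.2 in mutants of 6 weeks, 1721, 1856 and 1715 in mutants of 10 weeks and 1763, 1382 and 1982 in controls in oculomotor samples. Those of spinal cord had 2561, 2812 and 2619.5 in mutants of 6 weeks, 2488, 2621 and 2603 in mutants of 10 weeks and 2911 and 2707 in controls, again without overlap. Its differences were -0.53 ± 0.11, -0.54 ± 0.11 and -0.72 ± 0.12 (adjusted p = 0.00148, 0.00154 and 0.000398, limma). Kcnab3 had mean differences of -0.65 and -0.50 on its probe sets, both called. Kcnip4, a calcium-binding partner of Kcnd channels, was higher. It measured 1192, 992 and 929.5 in mutants of 6 weeks, 1076, 936 and 1141 in mutants of 10 weeks and 1363, 1090.5 and 1199 in controls in the oculomotor nucleus. Its spinal cord signals were 643, 524 and 629 in mutants of 6 weeks, 465, 778 and 588 in mutants of 10 weeks and 596 and 753 in controls. The groups did not overlap, and the differences were 0.77 ± 0.16, 0.78 ± 0.16 and 0.83 ± 0.17 (adjusted p = 0.00148, 0.00152 and 0.003, limma). Kcnip1, Kcnip3 and Kcne1l lay between -0.16 and 0.04 in the mean and were not called there.

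Calcium-activated potassium channels, which follow spikes with a hyperpolarisation, were called for Kcnma1 alone in the regional mean. Kcnma1 is the large-conductance pore opened by both calcium and voltage. Its oculomotor signals (1425987_a_at) were 876, 1053 and 896 in mutants of 6 weeks, 944, 965 and 925 in mutants of 10 weeks and 1266, 1229.5 and 838 in controls. The signals in spinal cord were 675, 763 and 677 in mutants of 6 weeks, 711, 552 and 626 in mutants of 10 weeks and 801 and 714 in controls. It was higher by 0.40 ± 0.14, 0.57 ± 0.14 and 0.52 ± 0.15 (adjusted p = 0.0369, 0.00565 and 0.0284, limma), and the regions did not overlap. Kcnn2, a small-conductance channel, had 363, 416 and 318 in mutants of 6 weeks, 306, 306 and 311 in mutants of 10 weeks and 287, 304 and 291 in controls in oculomotor samples and 259, 293 and 259 in mutants of 6 weeks, 276, 409 and 339 in mutants of 10 weeks and 247 and 268 in controls in spinal cord. It was called in mutants of 6 weeks (0.40 ± 0.13, adjusted p = 0.0344, limma) and stood at -0.12 and 0.18 at 10 weeks. Kcnmb4, the neuronal partner of Kcnma1, read 328, 389 and 302 in mutants of 6 weeks, 296, 296 and 308 in mutants of 10 weeks and 411, 395 and 258 in controls in the oculomotor nucleus and 344, 322 and 334 in mutants of 6 weeks, 354, 358 and 382 in mutants of 10 weeks and 392 and 385 in controls in spinal cord. Its mean difference of -0.13 ± 0.08 was not called (adjusted p = 0.236, limma).

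The inward rectifiers held the most lowered channel gene, Kcnj14, beside the raised Kcnj9. Kcnj14 is known in rat from motor neurons of cranial nerve nuclei. Oculomotor arrays gave 81.4, 101 and 93 in mutants of 6 weeks, 96.8, 95 and 107 in mutants of 10 weeks and 80, 86.8 and 78.9 in controls. Spinal cord arrays gave 263, 306 and 292 in mutants of 6 weeks, 252, 299.5 and 262 in mutants of 10 weeks and 296 and 301 in controls. The highest oculomotor array, at 107, was far below the lowest of spinal cord, at 252, but Kcnj14 passed the filter through spinal cord alone. The difference was -1.42 ± 0.13 (2.67-fold lower) in mutants of 6 weeks, -1.25 ± 0.13 (2.38-fold lower) in mutants of 10 weeks and -1.60 ± 0.15 (3.02-fold lower) in controls, with adjusted p of 3.17e-07, 1.69e-06 and 5.25e-07 in limma. The motor neuron markers moved the same way, and their part in this value was not tested.

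Kcnj10, the channel through which astrocytes and oligodendrocytes take up potassium, was lower too. It had 2396, 1979 and 2010.5 in mutants of 6 weeks, 2056, 1575 and 1987 in mutants of 10 weeks and 1979, 1752 and 1876 in controls in oculomotor samples. In spinal cord the readings were 2846, 3038 and 3161 in mutants of 6 weeks, 3001, 3227 and 3176 in mutants of 10 weeks and 2459 and 2602 in controls. No array of one region reached the other, with differences of -0.50 ± 0.10, -0.74 ± 0.10 and -0.43 ± 0.11 (adjusted p = 0.00152, 4.20e-05 and 0.0153, limma). The summed signal of the 6 astrocyte markers ran from 7537 to 9003 in oculomotor samples, against 14936 to 19830.4 in spinal cord. In the mean of the 3 conditions their median was -0.49, with 4 called lower and 1 higher. The 5 oligodendrocyte markers summed to 49419 to 50879 in the oculomotor nucleus of mutants of 6 weeks, against 43107 to 47862.5 in spinal cord. At 10 weeks they summed to 37045 to 41532 against 43926 to 59643 in mutants, and 27818 to 30251 against 40846 to 51771 in controls. The part of these cells in the value of Kcnj10 was not tested.

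Kcnj9, a subunit of the channels that G proteins open to silence neurons, had 310.4, 221 and 257 in mutants of 6 weeks, 206, 184 and 261 in mutants of 10 weeks and 349.7, 342 and 188 in controls in the oculomotor nucleus. Spinal cord signals of Kcnj9 were 134, 129.9 and 111 in mutants of 6 weeks, 103, 101 and 129.9 in mutants of 10 weeks and 149 and 109 in controls. It was higher by 0.93 ± 0.20, 0.82 ± 0.20 and 1.02 ± 0.23 (adjusted p = 0.0024, 0.00773 and 0.00484, limma), but passed the filter through the oculomotor nucleus alone. Kcnj9 and Kcnj10 are direct neighbours on chromosome 1 in the RefSeq gene order of GRCm38.p6 and had opposite regional differences. Of the neighbours Kcna1 and Kcna6 on chromosome 6 the first was likewise lower and the second higher, while Cacng4 and Cacng5 on chromosome 11 were both higher.

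K2P channels carry the leak current that sets the resting potential, and 2 of their 5 tested genes, Kcnk13 and Kcnk1, were lower in the oculomotor nucleus in all 3 conditions. Kcnk13, which in mouse brain is known from microglia, had 156, 152 and 199 in mutants of 6 weeks, 163, 146 and 153 in mutants of 10 weeks and 184, 199 and 174 in controls in the oculomotor nucleus. Its spinal cord signals were 446, 427 and 386 in mutants of 6 weeks, 330.0, 421 and 404 in mutants of 10 weeks and 400.2 and 373 in controls. With no overlap, the differences were -1.20 ± 0.13, -1.19 ± 0.13 and -0.97 ± 0.14 (adjusted p = 2.03e-06, 2.29e-06 and 0.000128, limma). The summed signal of the 6 microglial markers was 3432 to 4162 in oculomotor samples, against 4875 to 7580.1 in spinal cord.

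Kcnk1, a weakly conducting leak channel, had 1604, 1891 and 1676 in mutants of 6 weeks, 1452, 1605 and 1465 in mutants of 10 weeks and 1862, 1385 and 1958 in controls in oculomotor samples. Spinal cord samples had 2654, 2873 and 2891 in mutants of 6 weeks, 2439.5, 2419 and 2422 in mutants of 10 weeks and 2462 and 2731 in controls. Its differences were -0.70 ± 0.11, -0.68 ± 0.11 and -0.59 ± 0.12 (adjusted p = 0.000136, 0.000205 and 0.00279, limma), and its other probe set (1455896_a_at) gave -0.57, -0.45 and -0.63, all called. Kcnk2, opened by stretch and fatty acids, changed side between the ages. Its oculomotor signals were 575, 547 and 593 in mutants of 6 weeks, 745, 709 and 679 in mutants of 10 weeks and 744, 868 and 777 in controls, and its spinal cord signals were 674, 768 and 678 in mutants of 6 weeks, 469, 524 and 454 in mutants of 10 weeks and 564 and 499 in controls. In mutants of 6 weeks Kcnk2 was lower in the oculomotor nucleus (-0.29 ± 0.10, adjusted p = 0.0387), and at 10 weeks it was higher in mutants (0.54 ± 0.10, adjusted p = 0.000756) and controls (0.56 ± 0.11, adjusted p = 0.00184; limma). Kcnk3, an acid-sensitive leak channel of motor neurons, gave -0.38 (adjusted p = 0.202, limma) at 6 weeks and, both called, 0.81 and 0.79 in mutants and controls of 10 weeks.

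Of both tested HCN genes, Hcn3 was higher in the oculomotor nucleus and Hcn2 was not called. Hcn3 had 456, 256 and 299 in mutants of 6 weeks, 423, 473 and 419 in mutants of 10 weeks and 431, 428 and 366 in controls in oculomotor samples. In spinal cord it had 119, 134 and 70 in mutants of 6 weeks, 121, 109 and 97 in mutants of 10 weeks and 90.5 and 113 in controls. The lowest oculomotor array read 256 and the highest of spinal cord 134, but Hcn3 passed the filter through the oculomotor nucleus alone. Hcn3 was 2.72-fold higher in mutants of 6 weeks (1.44 ± 0.20, adjusted p = 2.82e-05), 3.46-fold in mutants of 10 weeks (1.79 ± 0.20, adjusted p = 2.66e-06) and 3.43-fold in controls (1.78 ± 0.22, adjusted p = 1.62e-05; limma). Hcn2 had 881, 1080.4 and 891 in mutants of 6 weeks, 924, 692 and 878 in mutants of 10 weeks and 708, 989 and 1302 in controls in the oculomotor nucleus and 1076, 809 and 953 in mutants of 6 weeks, 1275, 754 and 842 in mutants of 10 weeks and 1109.6 and 1150.4 in controls in spinal cord. The 95% confidence interval of its mean regional difference was -0.37 to 0.12.

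Genes of proteins that hold or assist these channels were called in both directions. Of a list of 26 scaffold, node and partner genes, 19 were tested, and in the regional mean 7 were higher and 2 lower, against 20.0% and 17.7% of all probe sets, with a median of 0.03. Those with the smallest p were Epb41l3, a scaffold beside the node (-0.39 ± 0.05), Fgf13, which binds sodium channel pores (0.43 ± 0.05), Cntnap1, which builds the junction flanking the node (0.61 ± 0.10), and Dpp6, a partner of Kcnd channels (0.30 ± 0.06). Of 14 ion pumps and exchangers, which restore the gradients, 7 were tested, 2 higher and 2 lower, with a median of 0.10, where 37.7% of all probe sets were called. The sodium-calcium exchanger Slc8a1 was higher (0.47 ± 0.08), as was the sodium pump subunit Atp1b1 (0.18 ± 0.05), and the subunits Atp1b3 (-0.30 ± 0.05) and Atp1b2 (-0.25 ± 0.06) were lower. Adjusted p in limma for these 8 genes ran from 2.51e-06 to 0.0115.

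At 10 weeks the oculomotor nucleus of mutants differed from that of controls in 3 channel genes, all higher in the mutants: Cacnb4, Kcna1 and Kcnc1. These are 3 of the 73 tested probe sets, or 4.11%, where 1.47% of all probe sets were called, 1.04% higher and 0.435% lower. Kcna1, the brake at the node described above, had 3114, 1972 and 2257 in mutants, against 1341, 1594 and 1660.5 in controls, without overlap. It was 1.57-fold higher (0.65 ± 0.13, adjusted p = 0.02, limma). Kcnc1, the fast delayed rectifier that lets neurons fire at high rates, had 2272, 1814 and 2124 in mutants and 1030.3, 1346 and 1235 in controls. All 3 mutant arrays lay above the controls, at 0.77 ± 0.18 (adjusted p = 0.0443, limma). Its values in mutants of 6 weeks were 2902, 2133 and 1614, against which no control of that age exists. In spinal cord Kcnc1 read 1338, 1836 and 1388 in mutants of 6 weeks, 2055, 1392 and 1745 in mutants of 10 weeks and 1401 and 1119 in controls.

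Cacnb4 was higher on one of its probe sets. On 1452089_at mutants read 679, 551 and 668, against 283, 445 and 368 in controls (0.77 ± 0.15, adjusted p = 0.0116, limma). On the brighter 1436912_at mutants read 779, 678 and 612, against 739, 738 and 618 in controls, which overlapped (-0.02 ± 0.12, adjusted p = 0.968, limma). Mutants of 6 weeks had 663, 593 and 648 on 1452089_at, and its spinal cord signals were 812, 758 and 655 in mutants of 6 weeks, 529, 706 and 632 in mutants of 10 weeks and 458 and 538 in controls. Scn1a was not called: on 1450120_at mutants had 1383, 823 and 1066, against 546, 544 and 710.1 in controls (0.82 ± 0.25, adjusted p = 0.106, limma), while 1450121_at gave 0.22 ± 0.11. Cacna2d2 stood at 0.45 ± 0.13 (adjusted p = 0.0828, limma).

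The calls for genotype rest on single arrays. Without control oculomotor replicate 1 or without mutant oculomotor replicate 1 of 10 weeks, 0 of the 73 were called, and without mutant oculomotor replicate 3 or control oculomotor replicate 2, 1 was. Without mutant spinal cord replicate 1 of 10 weeks 5 were, with Scn1a (1450120_at) and Cacna2d2 added. A fit of both groups of the comparison alone called 7, of which 5 were higher and 2, Kcnk3 (-0.54) and Cacna2d1 on 1425861_x_at (-0.67), were lower in mutants. At an unadjusted p under 0.05 the 73 held 6 higher and 9 lower. Here and below, counts at an unadjusted p stand without the share of all probe sets. So do counts with an array left out or in another fit. None of these is read as a result about channels. Of 5 oligodendrocyte markers tested 1 was called with these genes. Their summed signal was 37045 to 41532 in mutant oculomotor nucleus, against 27818 to 30251 in controls, with Cnp called (0.52 ± 0.12, adjusted p = 0.0384, limma) and Mog at -0.00078. Of microglial markers Cx3cr1 was higher (1.02 ± 0.16, adjusted p = 0.00327, limma) and the other 4 tested lay between -0.23 and 0.12. Of 4 markers of dopamine and serotonin neurons the serotonin transporter Slc6a4 was higher (0.82 ± 0.17, adjusted p = 0.0212, limma), and their summed signal was 7979.5 to 9732 in mutants, against 6581 to 7088 in controls. The part of these cells in the channel values was not tested.

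**Figure D4:**
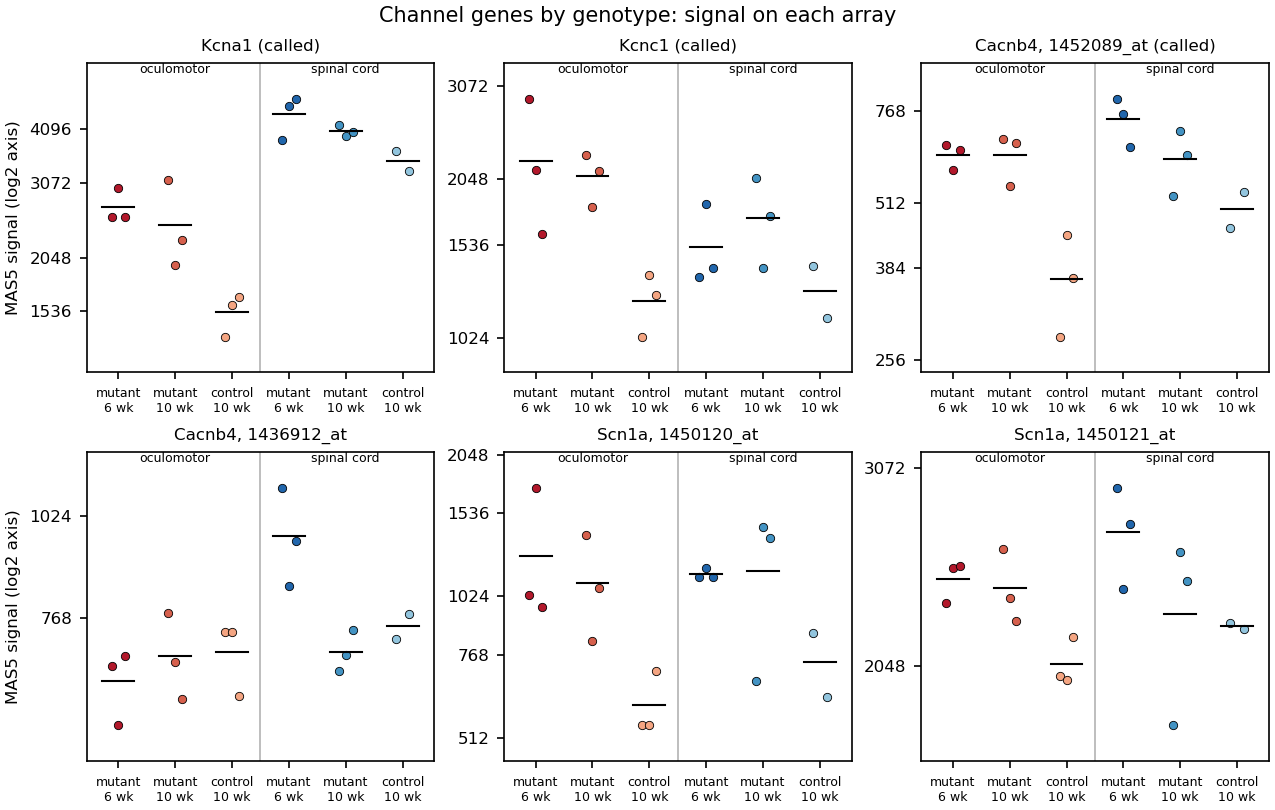
Points are the signals of single arrays on a log2 axis and horizontal lines the group means for the 3 channel genes called for genotype in the oculomotor nucleus at 10 weeks, for the second probe set of Cacnb4 and for both of Scn1a. In the 3 called panels the mutant arrays of 10 weeks lie above the control arrays in the oculomotor nucleus, whereas Cacnb4 on 1436912_at overlaps.

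In spinal cord at 10 weeks 0 of the 73 channel probe sets were called between mutants and controls in limma, where 0.0221% of all were, and 10 had an unadjusted p under 0.05. Without mutant spinal cord replicate 1 Kcnc4 (1425089_at) was called (-1.18 ± 0.23, adjusted p = 0.0378, limma). The 3 genes called in the oculomotor nucleus stood there at 0.23 ± 0.15 for Kcna1, 0.44 ± 0.21 for Kcnc1 and 0.30 ± 0.16 for Cacnb4 (1452089_at). The test of the difference between the regions called 0 of the 73, as it called 0.0% of all probe sets, and 4 had an unadjusted p under 0.05. For these genes the difference between the regions' genotype effects was 0.42 ± 0.20, 0.33 ± 0.28 and 0.46 ± 0.22 in the same order, with adjusted p of 0.818, 0.855 and 0.799. An effect of genotype particular to the oculomotor nucleus was therefore not shown for them.

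Between 6 and 10 weeks the mutant spinal cord changed in Kcnk2 and Scn3b, both of which fell, and the mutant oculomotor nucleus in no channel gene. The 2 calls in spinal cord are 2.74% of the 73, where 2.76% of all probe sets were called (1.78% higher and 0.972% lower), so the total share was near that of all. Kcnk2 signals in mutant spinal cord were 674, 768 and 678 at 6 weeks and 469, 524 and 454 at 10 weeks, a log2 fold change of -0.53 ± 0.10 (adjusted p = 0.0114, limma). Scn3b (1435767_at) read 483, 557 and 512 at 6 weeks and 407, 308 and 366 at 10 weeks, or -0.50 ± 0.11 (adjusted p = 0.0225, limma). The second probe set of Scn3b (1426328_a_at) gave 0.06 ± 0.19 and was not called. Neither gene overlapped between the ages on the called probe set. Cacnb4 (1436912_at) followed at -0.45 ± 0.12 (adjusted p = 0.0523, limma).

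Both calls are lost without 1 array or with another fit. Without mutant spinal cord replicate 2 of 6 weeks 0 were called and without replicate 2 of 10 weeks 1, and a fit of the groups of the comparison alone called 0. Genes of the meninges fell with them, 4 of 6 tested, with a summed signal of 7184 to 7656 at 6 weeks and 3792 to 5293 at 10 weeks, and the Schwann cell marker Pmp22 fell by 0.79. Of 4 smooth muscle and pericyte markers 2 fell, Acta2 (-1.01) and Tagln (-0.73), with a summed signal of 5 on the array of 3909 to 4835 at 6 weeks and 2458 to 3249.7 at 10 weeks. Of 7 neuron markers Nefl rose (0.34 ± 0.09, adjusted p = 0.0445, limma). Their part in the channel values was not tested. With no control of 6 weeks, age in the mutants cannot be told apart from normal ageing.

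In the mutant oculomotor nucleus 0 of the 73 were called for age in limma, where 0.0221% of all were, and 5 had an unadjusted p under 0.05. Kcnk2 there read 575, 547 and 593 at 6 weeks and 745, 709 and 679 at 10 weeks, apart but not called (0.30 ± 0.10, adjusted p = 0.335, limma). The change with age differed between the regions for Kcnk2 alone, 1 of 73 or 1.37%, where 0.368% of all probe sets were called. The difference is the signed change in the oculomotor nucleus minus that in spinal cord. It was called positive for 0.14% of all, as for Kcnk2, and negative for 0.228%. For Kcnk2 it was 0.83 ± 0.14 (adjusted p = 0.0358, limma), from a rise in the oculomotor nucleus, not called alone, and a fall in spinal cord. That call was lost when any one of 8 mutant arrays was left out: spinal cord replicates 1, 2 and 3 of 10 weeks or 1 and 2 of 6 weeks, and oculomotor replicates 1 and 3 of 10 weeks or 2 of 6 weeks. Its adjusted p over all alternatives on the 17 arrays ran from 0.0237 to 0.0999. Kcnk3 had 222, 144 and 117 at 6 weeks and 232, 239.8 and 228 at 10 weeks in the oculomotor nucleus, and 201, 286 and 162 and 92.2, 151 and 131 in spinal cord. Its difference between the regions was larger and more variable (1.19 ± 0.30, adjusted p = 0.086, limma) and not called, as was that of Scn3b (0.69 ± 0.15, adjusted p = 0.0564, limma). Control signals of Kcnk3 at 10 weeks were 363, 308 and 387 in the oculomotor nucleus and 164 and 226 in spinal cord. The comparisons of age and of genotype share the mutant arrays of 10 weeks.

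**Figure D5:**
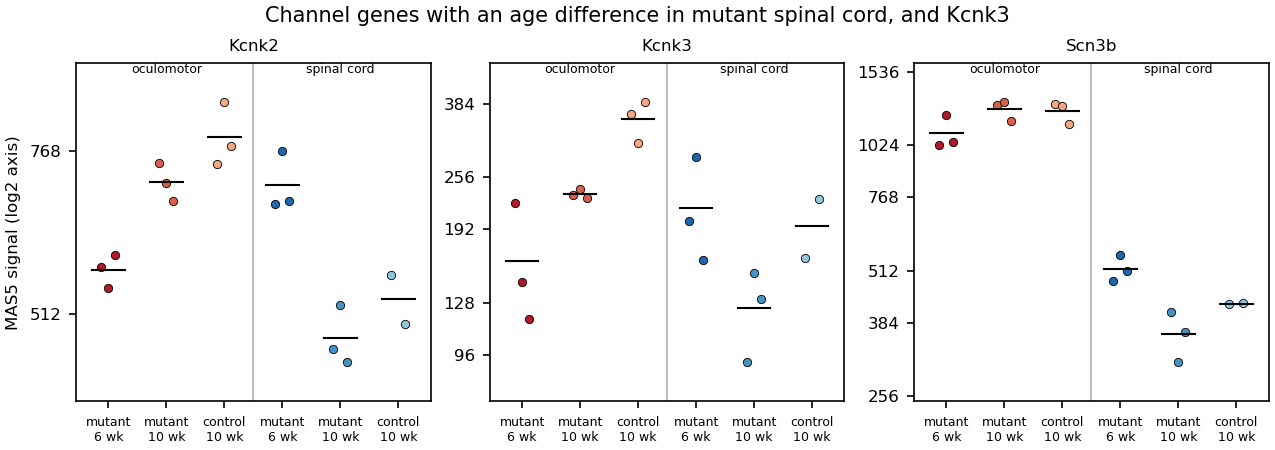
Points are the signals of single arrays on a log2 axis and horizontal lines the group means for Kcnk2, Kcnk3 and Scn3b (1435767_at). In mutant spinal cord Kcnk2 and Scn3b are lower at 10 weeks than at 6 weeks, and the oculomotor arrays of Kcnk2 at 6 weeks lie below those of both groups of 10 weeks.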

How the data were processed

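The deposited values are linear signal intensities of Affymetrix 430A arrays, made by the authors with Microarray Suite 5.0 per the submitters' processing notes and scaled to a common trimmed mean of about 500 as the values show. Probe sets were named through the platform annotation, with symbols updated through RefSeq (GRCm38.p6), 64 control probe sets were dropped, and 22626 remained. Each signal had 25 added and was log2-transformed. Probe sets in the lowest 40% by mean over the 17 arrays were dropped (limit 7.38), which kept 13575. One limma fit (version 3.58.1, R 4.3.3, trended eBayes, 11 residual degrees of freedom) held the 6 groups without a block, and Benjamini-Hochberg adjustment ran over all 13575. The code was tested on simulated data. Values on every array are given for Scn3b, Scn2a, up to 3 genes per class with the smallest p in the regional mean and members called for genotype or age, each on its brightest probe set. The members and all gene lists were chosen with earlier results of these data known. Alternatives were quantile normalization, median centring, an offset of 100, a floor of 25, eBayes without a trend and no filter or one of 60%. Others were all 18 arrays, the 17 arrays without the 2 rich in pituitary hormone RNA and a replicate block. Further ones were only the groups of a comparison, a rule modelled on the submitters' pairwise comparisons and each array left out. Levels of different probe sets are not compared. The chromosome and strand of each promoter are those of RefSeq.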

Additional observations from a re-analysis of the deposited data

Results flagged for a closer look

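Kcnk2 (1449158_at) was flagged because its change between 6 and 10 weeks in the mutants differed between the regions in a test of the difference itself. The change in the oculomotor nucleus was 0.30 ± 0.10 and that in spinal cord -0.53 ± 0.10, a difference of 0.83 ± 0.14 (adjusted p = 0.0358, limma). Its cause was not tested, and no control of 6 weeks exists to set against it.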

How the results depend on the processing

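With all 18 arrays, which adds the array that did not correlate with the others, the members called were 5 in mutants of 6 weeks, 6 in mutants of 10 weeks, 9 in controls and 26 in the regional mean, with 0 for genotype in the oculomotor nucleus, for age in spinal cord and for the difference in age effects. In that setting the control regional difference turned positive for Kcnab2 (0.023), Kcnj10 (0.68) and Kcnk1 (0.29), and none of the 3 was called. A rule modelled on the submitters' pairwise comparisons asked for arrays without overlap and a difference of the group means over 2-fold. It gave 9, 10 and 11 members in the same 3 regional comparisons. For both genotype in the oculomotor nucleus and age in spinal cord it gave 0. A filter of 60% gave 25 in mutants of 10 weeks and 33 in the regional mean, with fewer probe sets tested. Fitting only the groups of a comparison gave 7 (5 higher and 2 lower) for genotype in the oculomotor nucleus, 0 for age in spinal cord and 0 for the difference in age effects. Median centring gave 4 for age in spinal cord, and the difference in age effects had 0 with no filter and 0 without both arrays rich in pituitary hormone RNA. Leaving out each array in turn gave 29 to 41, 32 to 39 and 19 to 32 in the 3 regional comparisons and 46 to 53 in their mean. It gave 0 to 5 for genotype in the oculomotor nucleus, 0 to 1 in spinal cord, 0 to 3 for age in spinal cord and 0 to 1 for the difference in age effects. Where it left 1 control spinal cord array, that array was assumed to vary like the others. Same-numbered arrays did not deviate together (6 of 40 pairs had a correlation over 0.1, range -0.10 to 0.13), and the replicate block gave 37, 38, 29 and 50 members for region, 3 for genotype in the oculomotor nucleus and 2 for age in spinal cord. The other alternatives left every count within 1.5 times. All these counts stand without the share of all probe sets called in the same setting. They show how many calls were kept, not whether the excess of channels over all probe sets held. Signals near the filter limit and the 2 control spinal cord arrays limit what could be called.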
